A study of Homo sapiens with 12 samples.

Results

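The regions described here are the H3K27ac, H3K4me1 and H3K4me3 peaks that lay within 50 kb of 5 genes of growth control in HepG2 cells: MYC, CCND1, CDKN2A, CDKN2B and TERT. They were chosen by position alone. A peak belonged to the set if any of its bases lay within 50 kb of the gene's span (MYC, CDKN2A and TERT) or of its start (CCND1 and CDKN2B), with positions in GRCh37, and a peak near both CDKN2A and CDKN2B was counted once. The rule found 118 of 273822 listed peaks, namely 27 of 66586 for H3K27ac, 78 of 182755 for H3K4me1 and 13 of 24481 for H3K4me3. HepG2 is an established human cell line, labelled as hepatocellular carcinoma, and the cells were grown without treatment, so every group shares the line and the culture and differs only in the antibody. The 12 chromatin immunoprecipitation libraries formed 4 groups of 3, for H3K27ac, H3K4me1, H3K4me3 and a control that was titled as input but labelled with an anti-mouse immunoglobulin. The series' design text says that the marks were used to prioritise variants that may be causal. Each mark was deposited as 1 list pooled over its replicates, so no value below has a replicate spread, no difference between genes was tested, and the depth of the libraries is unknown. The labelled tissue, liver, was not checked against its marker genes, since positions of other genes in this build were not used here.

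MYC is a transcription factor that binds E-box sequences and drives growth and division. CCND1 encodes cyclin D1, which activates the kinases CDK4 and CDK6 and so starts the phosphorylation of the retinoblastoma protein in G1. CDKN2A encodes p16INK4a, an inhibitor of those kinases, and from an upstream first exon the p53 activator p14ARF. CDKN2B encodes the related inhibitor p15INK4b. TERT is the catalytic subunit of telomerase, silent in most adult cells and often reactivated in liver cancer. H3K4me3 marks promoters, H3K27ac active promoters and enhancers, and H3K4me1 enhancers and the flanks of promoters. In many promoters H3K4me1 is low at the start itself and high on either side.

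Sequences are shown for the 3 genes matched in the promoter table. Each line gives the 250 bases before a start from RefSeq (GRCh38.p14, coordinates of that build, which are not those of the peaks), read in the direction of the gene. CDKN2A had 2 entries. Its upstream window begins at 21995325 in that build, while the CDKN2A start of the rule is 21994490 in GRCh37. Neither CDKN2A window is therefore taken as the sequence before the start scored below.
TERT, chr5:1295069-1295318 (-): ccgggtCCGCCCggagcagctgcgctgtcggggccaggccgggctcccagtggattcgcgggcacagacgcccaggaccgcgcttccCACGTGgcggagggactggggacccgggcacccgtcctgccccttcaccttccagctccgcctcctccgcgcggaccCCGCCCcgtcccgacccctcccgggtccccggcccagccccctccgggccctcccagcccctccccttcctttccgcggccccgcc
CDKN2B, chr9:22009306-22009555 (-): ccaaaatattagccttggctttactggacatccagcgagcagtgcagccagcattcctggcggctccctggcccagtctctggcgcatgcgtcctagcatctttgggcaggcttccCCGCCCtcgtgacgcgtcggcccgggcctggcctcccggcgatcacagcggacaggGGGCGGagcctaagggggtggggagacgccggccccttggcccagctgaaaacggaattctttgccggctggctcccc
CDKN2A, upstream start, chr9:21995325-21995574 (-): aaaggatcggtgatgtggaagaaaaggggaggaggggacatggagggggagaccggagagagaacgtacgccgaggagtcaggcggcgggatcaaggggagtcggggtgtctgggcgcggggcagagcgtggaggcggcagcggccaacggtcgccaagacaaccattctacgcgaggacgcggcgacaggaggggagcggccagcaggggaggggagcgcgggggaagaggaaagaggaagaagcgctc
CDKN2A, downstream start, chr9:21974858-21975107 (-): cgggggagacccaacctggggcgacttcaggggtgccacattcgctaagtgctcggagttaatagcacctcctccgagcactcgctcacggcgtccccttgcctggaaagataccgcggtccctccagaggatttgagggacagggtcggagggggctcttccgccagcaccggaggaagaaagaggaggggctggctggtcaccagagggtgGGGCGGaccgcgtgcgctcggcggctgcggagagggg
Capitals mark matches, on either strand, to the E-box CACGTG, the GC box GGGCGG bound by SP factors, the E2F motif TTTNGCGC, the ETS motif CCGGAA, the AP-1 motif TGANTCA and the TATA box TATAAA. Of these only the E-box and the GC box were matched in the 4 windows of the reference sequence. TERT held 1 E-box, which begins 163 bases before the start, and 6.34% of the 35116 windows in the table held an E-box. GC boxes, present in 42.6% of all windows, numbered 2 in TERT, 2 in CDKN2B, 1 at the downstream CDKN2A start and 0 at the upstream one. All 4 windows held more CG dinucleotides than the median of 11, with 28 in TERT, 18 in CDKN2B, and 24 and 20 at the upstream and downstream CDKN2A starts. Fewer were held by 84.14% of all windows for TERT, 63.22% for CDKN2B, and 76.32% and 67.55% for those CDKN2A starts. A match describes the letters only and shows no binding. The letters are those of the reference genome, and sequence variants of HepG2 in these windows, which could add or remove a match, were not examined.

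All 5 starts lay inside an H3K4me3 region, 4 lay inside an H3K27ac region and 0 lay inside an H3K4me1 region. The same shares over all gene starts were not computed, since positions of other genes in this build were not used, so these counts have no background. The authors' signal value is used below to rank a peak within its own list, and a percentage of the list that is lower means the share of that mark's peaks on chromosomes 1 to 22 and X with a lower signal value. By H3K4me3 the starts ranked MYC (76.2, 99.3% of the list lower), CCND1 (54.9, 90.02%), CDKN2B (29.4, 62.5%), TERT (17.7, 53.9%) and CDKN2A (10.7, 47.0%). By H3K27ac the order was MYC (30.6, 94.2%), CCND1 (26.9, 92.3%), TERT (13.1, 81.5%) and CDKN2B (5.26, 65.2%), with no region at the CDKN2A start given by the rule. That start is at the upstream end of the gene. A downstream CDKN2A start was not scored, so these counts and orders do not describe a p16INK4a promoter inside the gene. TERT and CDKN2B thus changed places between the marks. Whether neighbours in these orders differ beyond their error cannot be told from pooled lists.

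**Figure D1:**
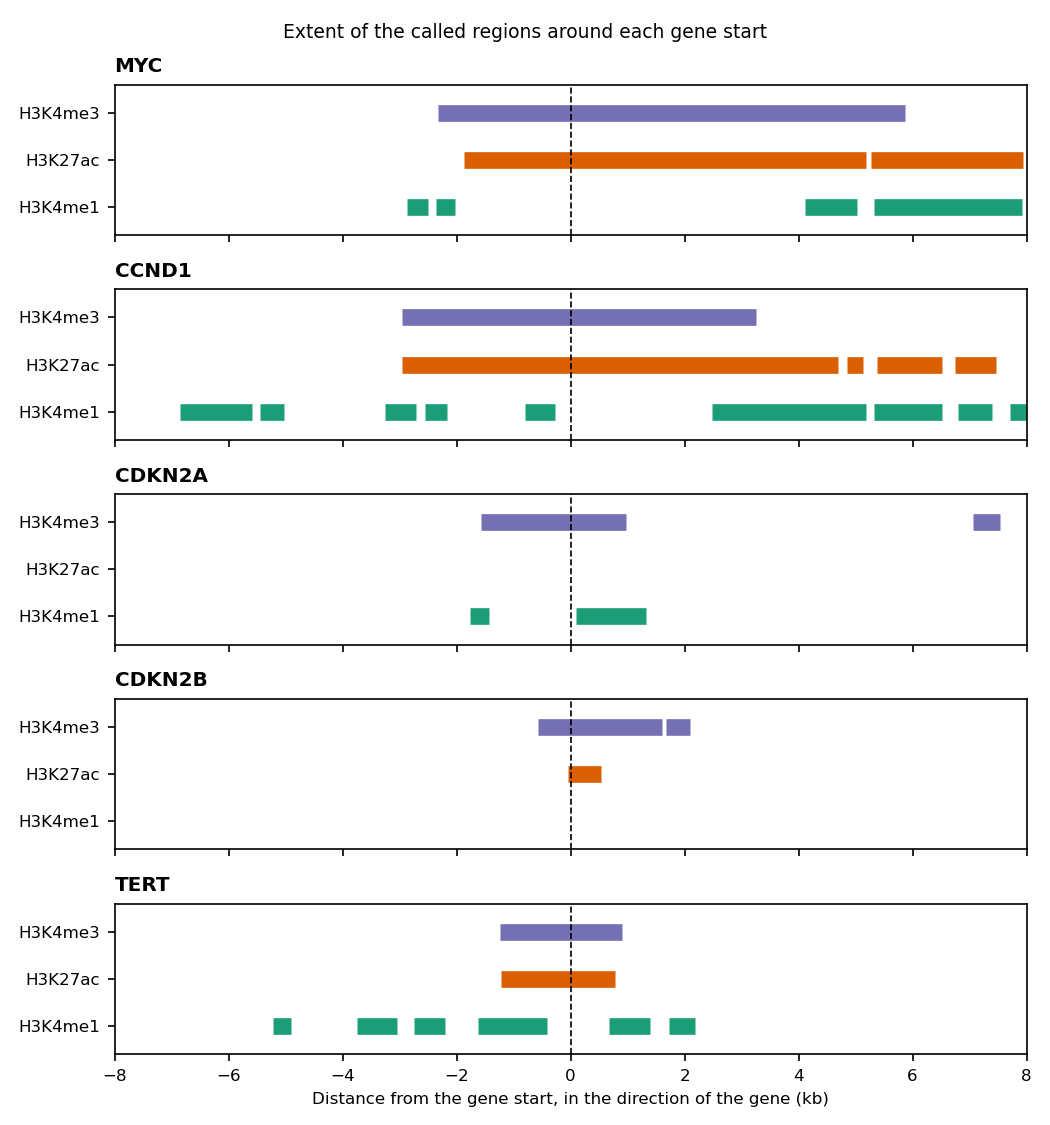
Extent of the called regions of each mark (coloured bars) from 8 kb upstream to 8 kb downstream of the 5 gene starts (dashed lines), with distance in kb in the direction of the gene. For CDKN2A only the start of the rule, at the upstream end of the gene, is shown. H3K4me3 spans every start, H3K27ac spans 4 of the 5, and no H3K4me1 region touches a start.

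The regions at the MYC and CCND1 starts were far wider than those at the other genes. The H3K4me3 region was 8186 bp at MYC and 6210 bp at CCND1, with 47 and 210 wider regions in a list of 24446. At the other starts it was 2551 bp (CDKN2A), 2187 bp (CDKN2B) and 2152 bp (TERT), against a list median of 1536 bp. H3K27ac followed the same division, with 7052 bp at MYC, 7653 bp at CCND1, 2009 bp at TERT and 583 bp at CDKN2B, against a list median of 723 bp. Only the CDKN2B region was narrower than that median.

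H3K4me1 was missing around each start, but the missing stretch differed in length. It measured 6131 bp at MYC, 2744 bp at CCND1, 1525 bp at CDKN2A, 1076 bp at TERT and 33972 bp at CDKN2B. The nearest H3K4me1 region lay 102 bp downstream of the CDKN2A start, 272 bp upstream of the CCND1 start, 411 bp upstream of the TERT start, 2025 bp upstream of the MYC start and 13065 bp downstream of the CDKN2B start. CDKN2B was thus the start with the most distant H3K4me1 on both sides. The CDKN2A distances hold only for the start given by the rule. RefSeq's upstream CDKN2A start was not placed in this build, and distances from it were not measured. At TERT the H3K4me3 summit lay 473 bp upstream of the start and inside the flanking H3K4me1 region. Of the 5 H3K4me3 regions at starts 1 had its summit inside H3K4me1, as did 40.6% of all H3K4me3 summits, and 4 had it inside H3K27ac, as did 76.4%.

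The MYC gene lay on chromosome 8 from 128748315 to 128753680, on the plus strand, and H3K4me3 covered all of its 5366 bp. The region ran from 128745994 to 128754179, from 2321 bp upstream of the start to 5864 bp downstream, with a signal value of 76.2 that 180 regions of the list exceeded. H3K27ac from 128746439 to 128753490 (30.6) covered 98.2% of the gene. It was followed by a second region from 128753586 to 128756251 (7.45), which overlapped the strongest H3K4me1 region of the locus, from 128753638 to 128756241 (7.61). The upstream H3K4me1 flank was weak, with 2 regions of 377 and 336 bp at signal values of 2.54 and 2.58. The marks thus extended further along the gene than upstream of it.

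Within 50 kb MYC had 5 H3K27ac regions, the 1 at its start included. The strongest H3K27ac region without H3K4me3 lay 46.9 to 50.9 kb upstream, from 128697422 to 128701385, partly outside the 50 kb limit. Its signal value of 12.9 exceeded that of 95.4% of the 39769 regions in the list that overlapped H3K4me1 and not H3K4me3, the combination typical of active enhancers. Between this region and the promoter, a stretch of 25.8 kb from 2.88 to 28.7 kb upstream held no peak of any mark. Downstream, regions of all 3 marks overlapped 17.8 to 18.8 kb from the start. H3K27ac (2.97, 47.4% of the list lower) and H3K4me3 (2.63, 16.5%) were in the lower part of their lists there, and H3K4me1 (5.68, 85.8%) in the upper part. A further H3K4me3 region 36.4 to 37.1 kb downstream (2.13) overlapped H3K4me1 (3.56) and no H3K27ac. Of the 21 H3K4me1 regions of the locus, 14 overlapped neither other mark (66.7%, near the 61.6% of all H3K4me1 regions).

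CCND1 had the most acetylation of the 4 loci. It starts at position 69455873 of chromosome 11 on the plus strand, and H3K27ac covered 30.1 kb of the 100 kb around it in 17 regions. At the start, the H3K4me3 region from 69452914 to 69459123 (54.9) lay almost wholly inside the H3K27ac region from 69452915 to 69460567 (26.9), which covered 99.98% of its bases. The H3K4me1 flank on the downstream side was strong, from 69458346 to 69461060 with a signal value of 10.1 and 98.9% of the list lower. On the upstream side the nearest H3K4me1 region, from 69455068 to 69455601, had a signal value of 2.21 with 4.07% of the list lower.

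The strongest H3K4me1 region near CCND1 lay away from the promoter. So did the strongest H3K27ac region without H3K4me3, which follows from its class, since H3K4me3 covered the start. An H3K27ac region from 69468652 to 69474476, 12.8 to 18.6 kb downstream of the start, was 5825 bp wide with a signal value of 26.6, close to the 26.9 at the start itself. Among the 39769 regions with H3K4me1 and without H3K4me3, 271 had a higher value. The H3K4me1 region that contained it, from 69468564 to 69475131, had a signal value of 15.6, which only 35 of 182592 H3K4me1 regions exceeded. Another region of that class lay 25.2 to 29.3 kb downstream, from 69481074 to 69485174 (14.4, 96.4% of that class lower), and a further one 47.0 to 49.5 kb downstream (9.37, 91.9%). Upstream, 3 H3K27ac regions between 22.3 and 25.7 kb from the start had signal values of 6.04, 3.69 and 2.25. Of the 10 H3K4me1 members in the top 10% of their list, 6 lay near CCND1, 3 near TERT and 1 near MYC.

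A second H3K4me3 region of the CCND1 locus lay 32.6 to 35.2 kb downstream, from 69488468 to 69491121. Its signal value of 51.0 was close to that at the CCND1 start, and H3K27ac (20.7) covered 94.7% of it. LTO1 is the next named protein-coding gene on that side in RefSeq's gene order, but its position in this build was not used here. Between the promoter and the H3K27ac region at 12.8 kb lay 7 further H3K27ac regions with signal values from 1.65 to 3.08, all below the list median of 3.15. H3K4me1 overlapped 4 of them, and 3 overlapped neither methylation.

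CDKN2A and CDKN2B carried H3K4me3 with little acetylation. CDKN2A lies on chromosome 9 from 21967751 to 21994490 and CDKN2B starts at 22009312, both on the minus strand. The combined window of 141.6 kb held 6 H3K4me3 regions, 1 of them with a q-value above 0.05, and 2 H3K27ac regions, which covered 1.21 kb or 0.855% of it. Of the 6 H3K4me3 regions 2 overlapped H3K27ac, against 77.5% of all H3K4me3 regions. The 4 without H3K27ac were in the weaker deciles of the H3K4me3 list by signal value, in which between 34.5% and 48.4% of all regions also lacked it.

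At the CDKN2B start, H3K4me3 ran from 22007706 to 22009892 with a signal value of 29.4, and H3K27ac from 22008778 to 22009360 with 5.26, reaching only 48 bp upstream of the start and 534 bp downstream. H3K27ac covered 26.7% of the H3K4me3 bases, against a median of 85.7% among the 2445 H3K4me3 regions in the same decile of the list by signal value. Only 2.54% of those had less of their length covered, and 9.04% had weaker or no H3K27ac. H3K4me1 did not overlap the region, a state shared by 129 (5.28%) of the same regions, and the nearest H3K4me1 lay 11459 bp from its edge. A larger distance was found for 623 of all 24446 H3K4me3 regions.

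At the CDKN2A start given by the rule, H3K4me3 from 21993511 to 21996061 (10.7) overlapped no H3K27ac, and the nearest lay 12717 bp away. This was less unusual, since 842 of the 2444 regions in its decile of the list (34.5%) also lacked H3K27ac. H3K4me1 was present on both sides, with 1222 bp downstream of the start (4.85) and 334 bp upstream (2.89). Starts of other genes, non-coding ones included, were not placed in this build. Whether the H3K4me3 region at this start belongs to CDKN2A alone was therefore not examined. The strongest H3K4me3 region inside the gene lay 18.6 to 20.6 kb downstream of that start, from 21973881 to 21975897, with a signal value of 16.7. It contained the second H3K27ac region of the locus, from 21974783 to 21975409 (2.06), which covered 31.1% of it against a median of 77.4% in the same decile. H3K27ac was weaker or missing in 12.5% of those regions. CDKN2A is known to have a downstream promoter for p16INK4a inside the gene, and whether this region holds it was not examined in this build.

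The other H3K4me3 regions of the locus were weak. One lay from 21964920 to 21965817, beyond the end of CDKN2A (6.62), 1 within the gene from 21986956 to 21987433 (3.76) and 1 beside the CDKN2B region from 22007224 to 22007633 (1.58), and none of these 3 overlapped H3K27ac. The last was the 1 member of the 118 with a q-value above 0.05. The 8 H3K4me1 regions had signal values from 2.53 to 4.85, and 5 of them were below the list median of 3.42. No peak of any mark was listed in the last 47.2 kb of the window on the CDKN2A side, nor over 20.3 kb upstream of CDKN2B.

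TERT carried all 3 marks around its start and almost none along the rest of the gene. The gene lies on chromosome 5 from 1253287 to 1295162 on the minus strand. H3K4me3 ran from 1294255 to 1296406 (17.7) and H3K27ac from 1294379 to 1296387 (13.1), with nearly the same edges. H3K27ac covered 93.4% of the H3K4me3 region, and its value exceeded that in 64.7% of the 2445 regions of like H3K4me3 signal, whose median was 8.81. H3K4me1 lay on both flanks, from 1295573 to 1296790 upstream (4.02) and from 1293768 to 1294496 downstream (3.89). Relative to its H3K4me3, acetylation was thus above the middle at TERT and below it at CDKN2B.

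Within the 41.9 kb TERT gene, marks of any kind covered 4.43% of the length, all of it near the start. From 2.18 to 47.2 kb downstream of the start, 45.1 kb held no peak. Acetylation outside the promoter was limited to a region of 275 bp 20.9 to 21.1 kb upstream (1.66, 2.58% of the list lower) and to a region at the edge of the window. The first of these lay inside a strong H3K4me1 region from 1314619 to 1317353 (7.83, 95.8% of the list lower). Of the 24 H3K4me1 regions of the locus 20 overlapped neither other mark (83.3%, against 61.6% of all H3K4me1 regions), including the strongest, from 1199192 to 1203381 beyond the far end of the gene and mostly outside the 50 kb limit (9.47, 98.4%). The window followed the gene's span and measured 141.9 kb, so many of these regions lay more than 50 kb from the start. With distance taken from the start for all 5 genes, 65 of the 78 H3K4me1 members remained, 34 of them with neither other mark against 47 as listed.

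At the upstream edge of the TERT window, H3K4me3 from 1343550 to 1346686 (38.4) exceeded that at the TERT start. H3K27ac there (11.7) was listed from 1343977 to 1345112, and a further H3K27ac region of 16.8 began 25 bp outside the limit. CLPTM1L is the next named protein-coding gene on that side in RefSeq's order, and its position in this build was not used here. Besides the promoter, the H3K27ac region listed there (79.7% of the list lower) was the only one within the limit near TERT above the list median.

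**Figure D2:**
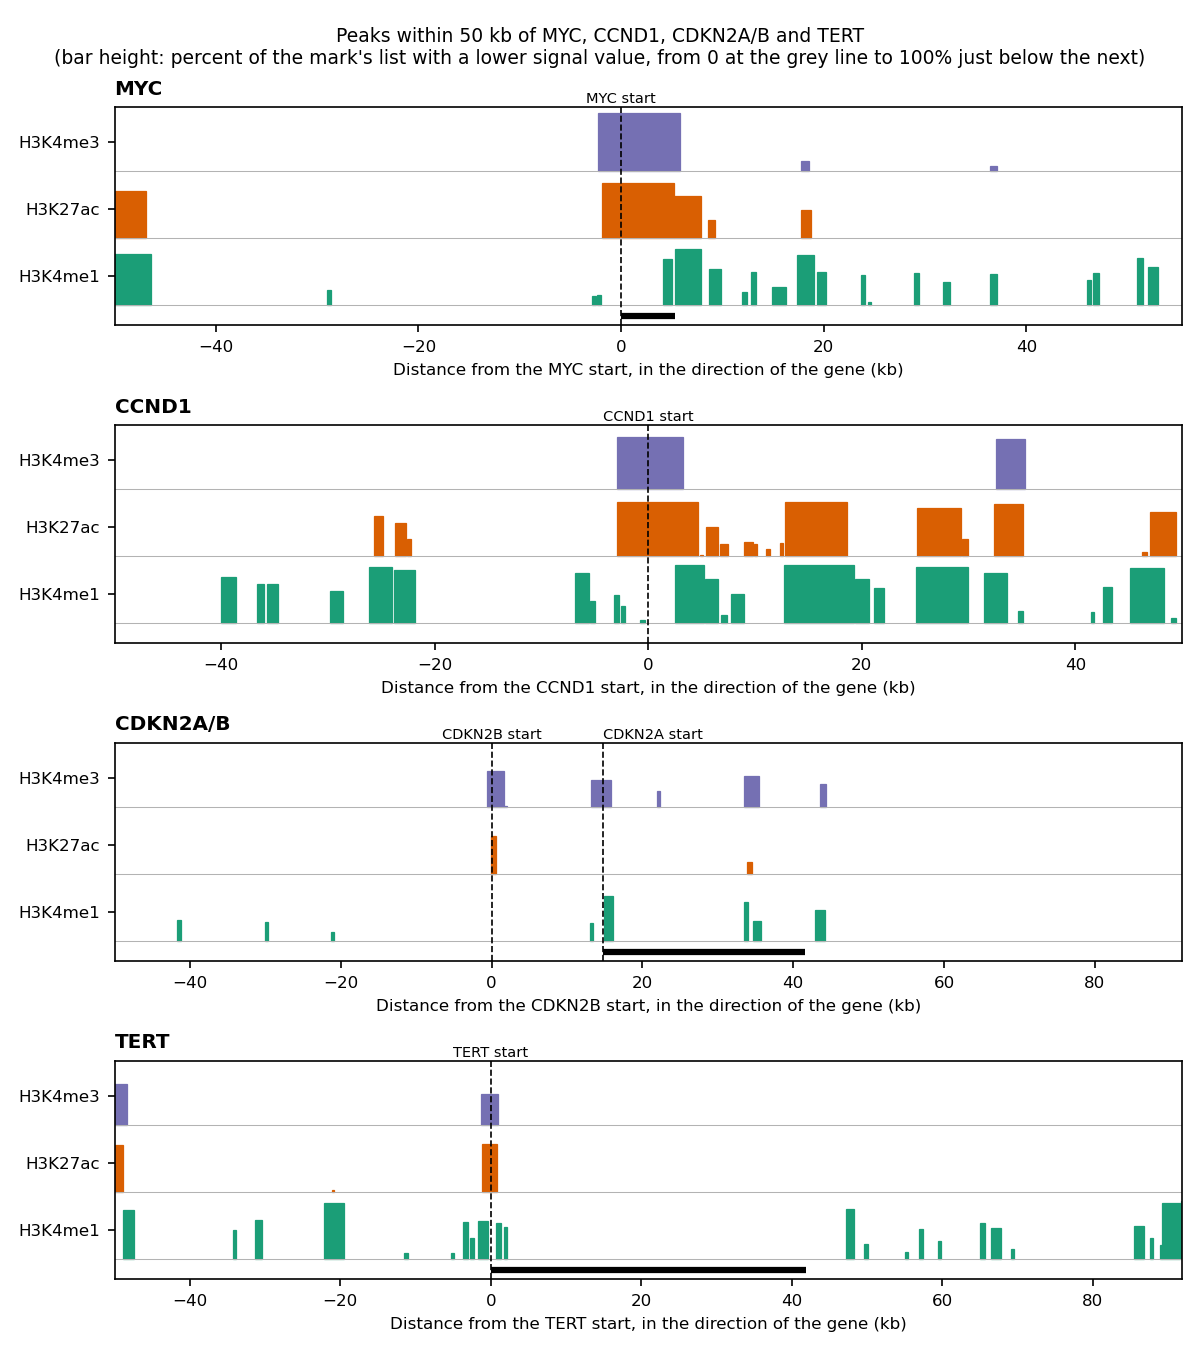
Peaks within 50 kb of the genes, 1 panel per locus, by distance in kb from the gene start in the direction of the gene. Bar height is the percentage of the mark's list with a lower signal value, dashed lines mark starts and black bars the gene spans of MYC, CDKN2A and TERT. CCND1 has 17 H3K27ac regions and CDKN2A/B 2, while H3K4me3 is present at every start.

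The 13 H3K4me3 regions were set beside all H3K4me3 regions of like strength, because acetylation differed with H3K4me3 strength. In deciles of the H3K4me3 list by signal value, the median strongest H3K27ac value over a region was 3.53 in the weakest decile, 1.84 in the decile numbered 3 from the weakest, and higher in each decile above that. In the strongest decile this median was 30.8, and MYC (30.6) and CCND1 (26.9) lay near it. TERT lay above the median of its decile and CDKN2B below, as described. In the second region at CCND1 (20.7) and the one at the edge of the TERT window (16.8, the region beyond the limit included) the values were below their medians of 24.7 and 21.2, and 37.6% and 34.5% of like regions were weaker. Low acetylation for a given H3K4me3 was thus most marked at CDKN2B and at the strongest region within CDKN2A.

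**Figure D3:**
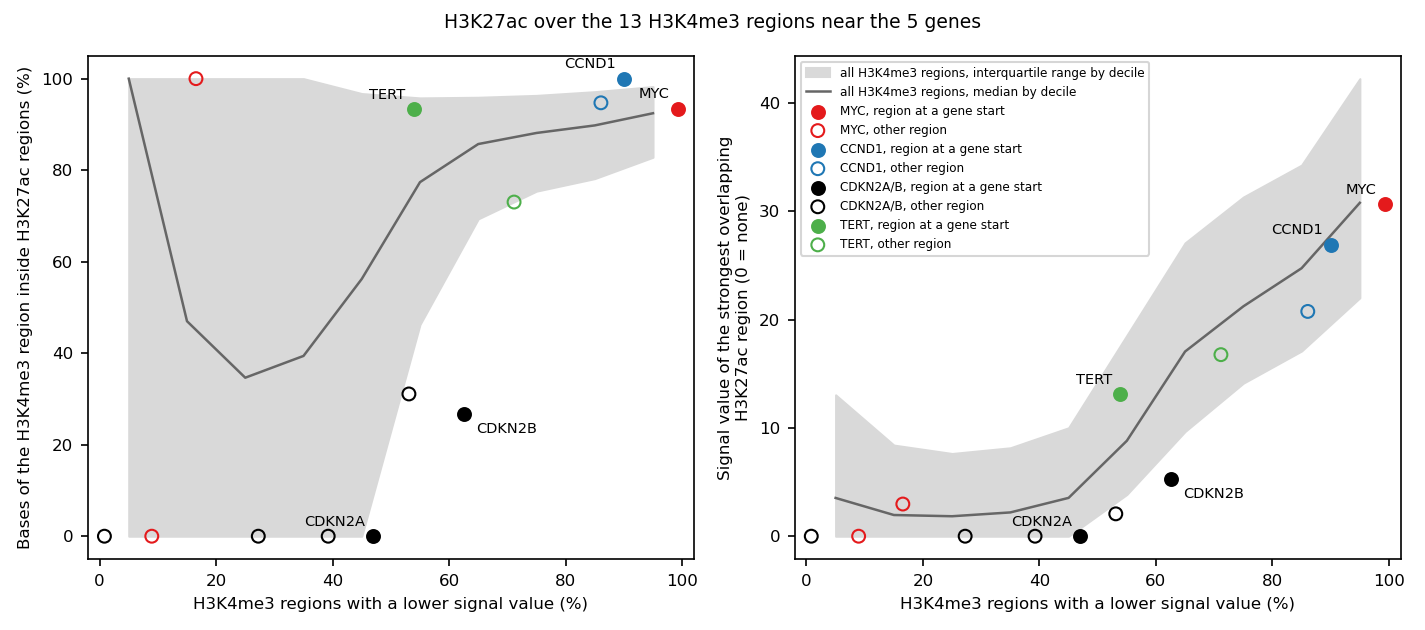
H3K27ac over the 13 H3K4me3 regions (points, filled at gene starts) against the percentage of H3K4me3 regions with a lower signal value, as percent of bases covered (left) and as signal value of the strongest overlapping H3K27ac region (right). Grey line and band are the median and interquartile range of all 24446 H3K4me3 regions by decile of the list. CDKN2B, at 26.7% and 5.26, lies below the band, and TERT, at 93.4% and 13.1, above the median.

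The length covered in the 50 kb to either side of each start differed between the loci, most clearly for H3K27ac and H3K4me1. The same windows around the summits of all 24446 H3K4me3 regions had a median of 8.20 kb of H3K27ac (interquartile range 3.33 to 16.3). CCND1 had 30.1 kb, more than 93.9% of those windows, and MYC 14.5 kb, more than 70.5%. TERT had 3.42 kb (25.7% lower), and CDKN2A and CDKN2B each 1.21 kb (12.5%) from the same 2 regions. H3K4me1 had the same extremes, with 38.6 kb at CCND1 and 18.0 kb at MYC, then 11.4 kb at TERT, 5.73 kb at CDKN2B and 5.28 kb at CDKN2A, against a median of 18.2 kb. H3K4me3 did not follow: it covered 8.54 kb at CDKN2A and at CDKN2B, close to 8.86 kb at CCND1 and 9.73 kb at MYC, and 3.76 kb at TERT. The 8.54 kb is the sum of the same 6 regions for both genes, of which those at the starts measured 2551 bp (CDKN2A) and 2187 bp (CDKN2B). The anchors are H3K4me3 regions of any strength, not gene starts.

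The acetylated length also differed in direction. At CCND1, 24.9 kb lay downstream of the start and 5.18 kb upstream, and at MYC 9.51 and 4.95 kb. At TERT the order was the opposite, with 0.783 kb downstream and 2.64 kb upstream. H3K4me1 at TERT was likewise mainly upstream, with 8.81 kb against 2.56 kb downstream. Of the upstream H3K27ac at TERT, 1136 bp was the region at the edge of the window, which overlapped a separate H3K4me3 region. Between 50 and 100 kb of the TERT gene, 7 of 8 H3K27ac regions lay downstream, so the upstream excess holds only within the 50 kb.

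**Figure D4:**
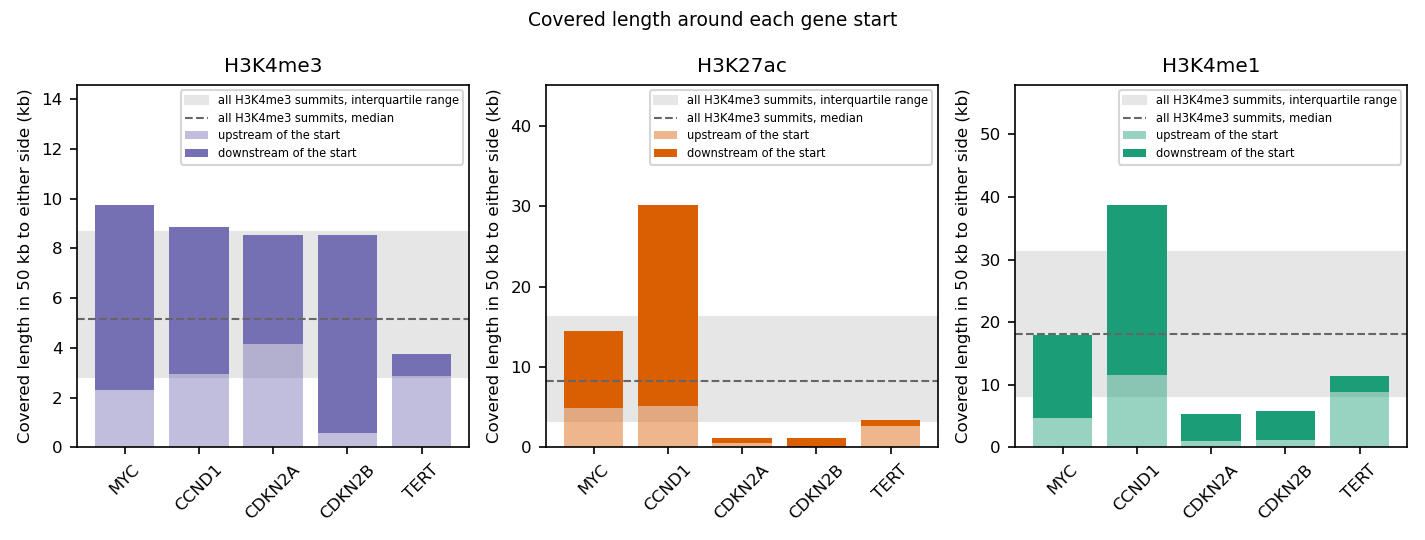
Length covered by each mark in the 50 kb to either side of the 5 gene starts (bars, in kb, upstream part pale and downstream part dark), with the median (dashed line) and interquartile range (grey band) around all H3K4me3 summits. H3K27ac covers 30.1 kb at CCND1 and 1.21 kb at CDKN2A and CDKN2B, while H3K4me3 covers 8.54 kb or more at each gene but TERT. CDKN2A and CDKN2B share the same H3K27ac and H3K4me3 regions.

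Over all 5 genes, the combinations at H3K27ac and H3K4me1 regions were near those of the lists. The shares at the 13 H3K4me3 regions were lower than in the list, mainly through the CDKN2A/B locus. Of the 27 H3K27ac regions 9 overlapped H3K4me3 (33.3%, 95% Wilson interval 18.6 to 52.2, against 31.7% of the list), 15 overlapped H3K4me1 alone (55.6% against 59.8%) and 3 overlapped neither (11.1% against 8.52%). Of the 78 H3K4me1 regions 25 overlapped H3K27ac (32.1% against 33.4%) and 47 overlapped neither other mark (60.3% against 61.6%). Of the 13 H3K4me3 regions 8 overlapped H3K27ac (61.5%, interval 35.5 to 82.3, against 77.5%) and 10 overlapped H3K4me1 (76.9%, 49.7 to 91.8, against 92.7%). The list share of 92.7% lay just outside its interval. The regions without H3K4me1 included the one from 22007224 to 22007633, with a q-value above 0.05. That region joined the one at the CDKN2B start when peaks within 1 kb were joined. The interval was not recomputed without it, so no difference from the list is read from it. These intervals reflect counting error alone, and regions next to each other are not independent. Within the set the loci were unlike. H3K4me3 regions that overlapped H3K27ac numbered 2 of 6 near CDKN2A/B, 2 of 3 near MYC, 2 of 2 near CCND1 and 2 of 2 near TERT. Those that overlapped H3K4me1 numbered 3 of 6 near CDKN2A/B and all of them at the other loci. H3K4me1 regions that overlapped H3K27ac numbered 15 of 25 near CCND1, 5 of 21 near MYC, 4 of 24 near TERT and 1 of 8 near CDKN2A/B, and 12 of the 15 H3K27ac regions with H3K4me1 alone lay near CCND1. The TERT window followed the gene's span, so its H3K4me1 count includes regions more than 50 kb from the start. The lists do not show whether overlapping marks lay on the same alleles or in the same cells.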

How the data were processed

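HepG2 chromatin was immunoprecipitated and sequenced as paired reads, per the labels' protocols. Per the submitters' processing notes the tool MACS2 and the build hg19 (GRCh37) were used, with version, threshold, aligner and use of the control not given in the sources used here. The authors deposited 1 peak list per mark, pooled over replicates going by its name. Each peak has a signal value, whose reference is not stated, and the −log10 of its q-value, as deposited. The score and p-value columns of the deposited lists were not used. Signal values served only to rank peaks within a list.

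Gene positions came from the selection rule, and positions were counted from 1. Peaks on chromosomes 1 to 22 and X formed the background. Regions overlapped if they shared 1 bp. The deciles of the H3K4me3 list and the windows around its summits, and the counts from 50 to 100 kb, were added after seeing the data. Members and gene lists were chosen with earlier results of these data known. Named regions were those at gene starts, the strongest of each mark per locus and the strongest H3K27ac region without H3K4me3, and others were named after their values were seen. The lists of pathway genes and of cell type markers could not be read, since the gene table was of GRCh38. RefSeq (GRCh38.p14) gave promoter sequences and gene order only. Overlap, coverage and joining were tested on simulated data. Python 3.11.15, numpy 2.4.6, pandas 2.3.3 and matplotlib 3.10.9 were used.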

Additional observations from a re-analysis of the deposited data

How the results depend on the processing

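No paired analysis was possible because each mark was analysed as 1 list pooled over its replicates, and no replicate could be left out for the same reason. Over 10 results 58 alternative values were computed, all planned, of which 39 stayed within 1.5 times the main count or inside the interval of the share and 19 moved. With the stronger 50% of each list there were 13 H3K27ac, 46 H3K4me1 and 7 H3K4me3 regions, 6 H3K27ac regions with H3K4me1 alone, and 53.85% of H3K27ac regions overlapped H3K4me3. Within 100 kb the numbers were 58, 163 and 21, with 15 H3K27ac regions overlapping H3K4me3, 38 with H3K4me1 alone and 105 H3K4me1 regions with neither other mark. Within 25 kb there were 48 H3K4me1 regions, 25 with neither other mark. Joining peaks within 1 kb gave 15 H3K27ac and 50 H3K4me1 regions, 7 H3K27ac regions with H3K4me1 alone, 28 H3K4me1 regions with neither mark and a share of 53.33%. Fewer or more regions follow from how these alternatives are built. Starts with an H3K4me1 region within 1 kb numbered 3, against 0 inside one. CDKN2A left the count of starts in H3K4me3 with the stronger 50%, which gave 4. CCND1 had the most and CDKN2A/B the fewest H3K27ac regions under each alternative threshold, under joining and within 25 and 100 kb, the fewest tied with TERT within 25 kb and with the −log10 q-value limit set to 5. The lead of CDKN2A/B in H3K4me3 regions, 6 as listed, was absent with the stronger 50% (2, as at CCND1 and TERT) and within 100 kb (6, as at TERT). Depth is unknown, so a missing region shows only that none was listed.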

Other observations

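The picture changed beyond the 50 kb limit, unevenly between loci. Between 50 and 100 kb of MYC a further 16 H3K27ac regions were listed, 15 of them downstream, against 5 within 50 kb. The strongest lay 57.7 to 61.4 kb downstream of the MYC start (signal value 18.1, 86.4% of the list lower) and overlapped an H3K4me3 region with a signal value of 49.5. Near TERT, 8 further H3K27ac regions were listed in that range, the strongest 109.9 to 114.3 kb downstream of the start and beyond the far end of the gene (38.6, 96.9% of the list lower), above the 13.1 at the TERT start. CCND1 gained 6. CDKN2A/B gained 1, with a signal value of 2.33, and 0 H3K4me3 regions.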
